A study of Mus musculus with 25 samples.

Results

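The 10 genes followed here mark white adipocytes, and their RNA was measured in the *soleus*, a slow postural muscle of the calf. The genes were *Adipoq*, *Lep*, *Fabp4*, *Plin1*, *Cidec*, *Cfd*, *Retn*, *Pparg*, *Lipe* and *Pnpla2*, chosen by symbol as 10 of the 52636 genes counted, and each symbol matched 1 gene. They were picked with earlier results of the same libraries known, so their spread between libraries and their likeness to each other are given as descriptions, with no p. The study asked whether muscle DNMT3A, a *de novo* DNA methyltransferase, shapes the response of muscle to exercise. It sequenced 25 *soleus* muscles, 1 library per mouse and 1 muscle per library, from 12-week-old C57BL/6 mice.

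All mice carried *Dnmt3a* alleles with LoxP sites around exon 19. WT mice had these alleles alone, and mD3AKO mice also carried the mCK-Cre transgene. Its muscle creatine kinase promoter drives Cre in skeletal muscle and heart, late in fiber differentiation, so adipocytes were not the targeted cells. At rest there were 5 WT mice (2 females and 3 males) and 7 mD3AKO mice (3 females and 4 males), which spent the time of the bout in a sham treadmill arena. After exercise there were 7 WT mice (4 females and 3 males) and 6 mD3AKO mice (3 females and 3 males), killed 60 minutes after a 30-minute treadmill run.

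An adipocyte stores triglyceride in 1 large lipid droplet, releases fatty acids from it by lipolysis and secretes hormones that report the size of the fat store. Some adipocytes lie between the fibers and along the fascia, vessels and nerves of skeletal muscle, and a dissected muscle can bring fat of its surroundings with it. Of the genes followed here, *Pparg* is the nuclear receptor that drives adipocyte differentiation. *Adipoq*, *Lep*, *Retn* and *Cfd* encode the secreted proteins adiponectin, leptin, resistin and adipsin, the last being complement factor D. *Plin1* encodes perilipin 1, the coat of the droplet, and *Cidec* a protein that fuses droplets. *Fabp4* encodes a fatty acid carrier that capillary endothelium and macrophages also make. *Lipe* and *Pnpla2* encode hormone-sensitive lipase and adipose triglyceride lipase, which muscle fibers also use.

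In the mouse genome (mm10, whole gene spans, exons and introns together) *Adipoq* lies at chr16:23146536-23158028 (+), *Lep* at chr6:29060220-29073877 (+), *Retn* at chr8:3655770-3660110 (+), *Cfd* at chr10:79890853-79892655 (+) and *Plin1* at chr7:79720218-79732903 (-). *Cidec* lies at chr6:113424634-113435760 (-), *Fabp4* at chr3:10204088-10208576 (-), *Pparg* at chr6:115360951-115490399 (+), *Lipe* at chr7:25379527-25398710 (-) and *Pnpla2* at chr7:141455198-141460743 (+). Reads were counted over exons. *Retn* shared 3.23% of its words of 31 bases with other genes and *Plin1* 1.74%, and the others at most 0.266%, so that few reads could be split with similar sequence. Exons of *Lipe* overlap *4732471J01Rik* on the opposite strand, which held 594 reads in all against 35256.

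The libraries held 22671457 to 37431801 counts, with a median of 32189360, and levels are given as counts-per-million (CPM), of which 1 stood for 32.2 reads at the median. *Dnmt3a*, which checks the genotype labels, lay between 93.4 and 130.5 CPM in the 12 WT libraries and between 34.5 and 53.9 CPM in the 13 mD3AKO libraries, without overlap. *Myh7*, the slow myosin that marks this muscle, lay at 8498 to 20180 CPM. The adipocyte genes were present in every library, *Lep* at the least with 8 counts in 1 of them. *Ucp1*, the defining gene of brown adipocytes, never exceeded 2 counts in any library. Mouse 15, a rested mD3AKO male, stood apart, since ribosomal RNA took 39.6% of its counts and 7.95% to 13.1% in the other 24 libraries. Mouse 21, a rested mD3AKO female, was the highest of the rested and of the mD3AKO mice in all adipocyte genes except *Pnpla2*. Over all 25 libraries it was not alone. The centred mean log2 CPM of *Adipoq*, *Plin1* and *Cidec* was 1.96 in mouse 21, 2.26 in mouse 25, 1.81 in mouse 9 and -2.16 in mouse 2. Mouse 21 was thus singled out by its values, and leaving out the highest library of a group lowers the mean of that group. The values that mouse 21 moved most are also given without it, and the comparisons by exercise and genotype without both mice. Each library is a separate mouse.

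Upstream sequence is shown for 5 of the genes, because 4 of them varied together between libraries and the last, *Pnpla2*, did not. Each run holds the 250 bases before the RefSeq start site (GRCm38.p6), 5′ to 3′ on the strand of the gene, and capitals mark matches to TTNNGNAA on either strand. This is a loose form of the site bound by C/EBP factors, which act beside *Pparg* in adipocytes. The windows are chr16:23146286-23146535 (+) for *Adipoq*, chr6:29059971-29060220 (+) for *Lep*, chr6:113435761-113436010 (-) for *Cidec*, chr10:79890603-79890852 (+) for *Cfd* and chr7:141454938-141455187 (+) for *Pnpla2*.
Adipoq: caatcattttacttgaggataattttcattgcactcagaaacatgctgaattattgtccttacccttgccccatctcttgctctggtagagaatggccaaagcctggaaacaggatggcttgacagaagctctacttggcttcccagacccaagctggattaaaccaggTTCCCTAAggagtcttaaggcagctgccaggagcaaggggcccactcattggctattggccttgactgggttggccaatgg
Lep: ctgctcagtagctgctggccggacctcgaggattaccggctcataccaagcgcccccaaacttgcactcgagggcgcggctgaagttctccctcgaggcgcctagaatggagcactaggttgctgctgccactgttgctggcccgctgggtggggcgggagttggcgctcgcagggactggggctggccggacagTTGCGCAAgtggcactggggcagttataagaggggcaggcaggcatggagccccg
Cidec: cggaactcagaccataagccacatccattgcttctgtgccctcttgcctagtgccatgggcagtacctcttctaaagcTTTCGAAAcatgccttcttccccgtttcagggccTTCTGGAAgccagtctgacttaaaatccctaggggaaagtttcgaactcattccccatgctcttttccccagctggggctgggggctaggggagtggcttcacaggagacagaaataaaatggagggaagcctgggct
Cfd: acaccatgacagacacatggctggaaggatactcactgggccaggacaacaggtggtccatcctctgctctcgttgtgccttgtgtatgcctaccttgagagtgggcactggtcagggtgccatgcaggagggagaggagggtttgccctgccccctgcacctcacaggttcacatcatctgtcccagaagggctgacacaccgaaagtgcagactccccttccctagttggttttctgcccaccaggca
Pnpla2: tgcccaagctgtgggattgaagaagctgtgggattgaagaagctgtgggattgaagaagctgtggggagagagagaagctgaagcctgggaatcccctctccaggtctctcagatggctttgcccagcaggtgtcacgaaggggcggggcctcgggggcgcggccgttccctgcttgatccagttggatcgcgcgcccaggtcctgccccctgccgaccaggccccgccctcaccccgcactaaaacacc

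*Adipoq* held 1 match, *Lep* 1 and *Cidec* 2, and these letters were not in the windows of *Cfd* and *Pnpla2*. The letters occurred in 36.8% of the 32851 mouse promoter windows of this length, so a match is common. In *Lep* the match was the full palindrome TTGCGCAA at position -55 from the start, which 0.164% of the windows held and which is also a case of TTNNGNAA. The CCAAT box, also read on both strands like the motifs below and present in 33.8% of the windows, occurred 3 times in *Adipoq*, at positions -34, -27 and -7. GGGCGG, in 32.7% of the windows, occurred in *Lep* and in *Pnpla2*. The strict direct repeat DR1 (AGGTCA repeated in the same direction with 1 base between), of the kind that PPARG binds with its partner RXR, was in none of the 13 start-site windows matched for 9 of the 10 genes, and in 0.0335% of all windows. The window of *Lep* was 65.6% G and C with 16 CG pairs, that of *Pnpla2* 63.2% with 12 and that of *Adipoq* 48.8% with 0, beside medians of 52.4% and 6 over all windows. A match is a description of letters, and binding was not measured.

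The 10 genes differed widely in level. Per exon length, as CPM per kilobase (RPKM), *Cfd* had the highest median at 100.4 over the 25 libraries. Behind it came *Pnpla2* at 71.2, *Fabp4* at 52.4, *Adipoq* at 12.6, *Lipe* at 6.90, *Cidec* at 4.65, *Retn* at 2.81, *Plin1* at 2.25, *Pparg* at 2.00 and *Lep* at 1.05 RPKM. The ranges of all neighbours in this order overlapped. Within libraries, *Fabp4* exceeded *Adipoq* in 25 of 25 and *Cidec* exceeded *Retn* in 24, whereas *Cfd* exceeded *Pnpla2* in only 17 and *Lipe* exceeded *Cidec* in 14, so the order of those neighbours changed from mouse to mouse. The counted length of *Fabp4*, 4489 bases, equals its whole gene span with introns, which lowers its RPKM beside the others.

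The adipocyte genes divided into 6 that swung widely between mice and 4 that did not. *Adipoq* ranged from 3.75 CPM in mouse 2 to 83.9 CPM in mouse 21, both rested mD3AKO females, a ratio of 22.4. *Lep*, which signals the fat store to the brain, ranged from 0.264 to 24.5 CPM, a ratio of 92.6 that rests on 9 counts at its low end, in mouse 2. *Plin1* spanned a ratio of 28.9, *Retn* 28.3, *Cidec* 23.3 and *Cfd* 14.2 from lowest to highest. *Fabp4*, by contrast, spanned a ratio of 1.87, *Pnpla2* 2.17, *Lipe* 2.33 and *Pparg* 4.32.

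On the log2 CPM scale the SD over the 25 libraries was 1.52 for *Lep*, 1.33 for *Plin1*, 1.32 for *Retn*, 1.20 for *Adipoq*, 1.12 for *Cidec* and 1.07 for *Cfd*. The median SD of the 16340 tested genes was 0.24. The 6 genes stood between percentile 98.9 (*Cfd*) and 99.8 (*Lep*) of these SDs. *Pparg* lay at percentile 85.0, *Lipe* at 66.3, *Pnpla2* at 57.7 and *Fabp4* at 53.5. The SD of *Adipoq* within the 4 groups of genotype and exercise was 1.20, as large as over all libraries, and the group means accounted for 12.1% of its variance. That share was between 3.97% (*Pnpla2*) and 25.0% (*Pparg*) among the 10 genes, against a median of 12.6% over all tested genes. Counting error was small beside this: at the median count it came to 4.26% for *Adipoq*, against a coefficient of variation of 90.0%.

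**Figure D1:**
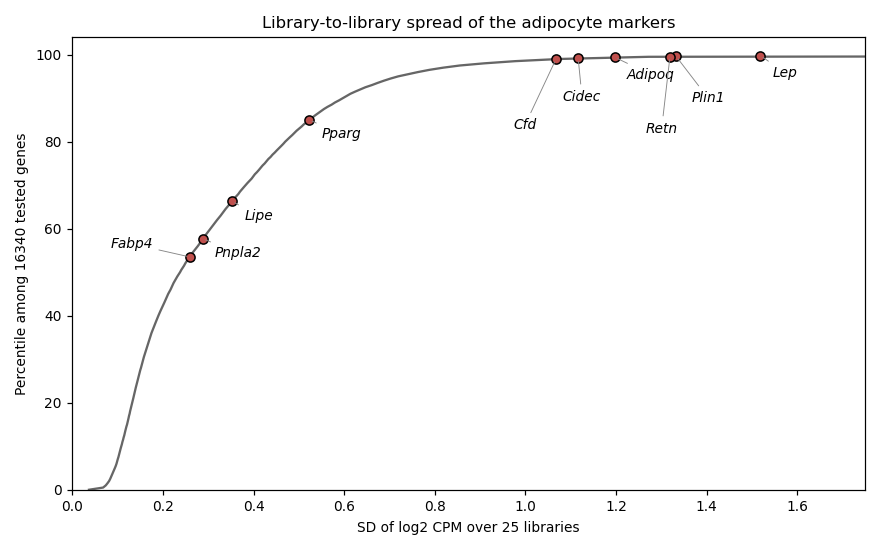
SD of log2 CPM over 25 libraries (horizontal axis) against its percentile among the 16340 tested genes (vertical axis, grey line), with the 10 adipocyte genes as red points. *Lep*, *Plin1*, *Retn*, *Adipoq*, *Cidec* and *Cfd* sit on the flat top of the curve, at SDs of 1.07 and above, and *Fabp4* sits near its middle at percentile 53.5.

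The hormone genes showed the swing in single mice. In rested WT mice, *Adipoq* was at 18.2, 17.3, 31.5, 11.8 and 45.8 CPM in mice 1, 11, 13, 14 and 20. The 7 rested mD3AKO mice ranged from 3.75 through a median of 13.0 to 83.9 CPM. The 7 exercised WT mice ranged from 6.64 through 26.3 to 77.4 CPM, and the 6 exercised mD3AKO mice from 7.64 through 15.1 to 28.3 CPM. All 4 groups overlapped, and the exercised mD3AKO group had the lowest maximum. Group means were 25.0 ± 13.7 (SD, n = 5), 21.2 ± 28.1 (n = 7), 35.9 ± 28.4 (n = 7) and 16.4 ± 8.49 CPM (n = 6) in the same order. Without mouse 21, rested mD3AKO mice averaged 10.7 ± 5.23 CPM (SD, n = 6), with 17.3 CPM as their highest value.

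*Lep* was at 4.33, 3.49, 9.77, 1.39 and 13.9 CPM in the same 5 rested WT mice. Rested mD3AKO mice ranged from 0.264 through a median of 2.74 to 20.9 CPM, exercised WT mice from 1.22 through 4.50 to 24.5 CPM and exercised mD3AKO mice from 1.91 through 3.72 to 11.7 CPM. The 4 groups again overlapped over most of their range. *Retn*, whose product opposes insulin in mice, was at 3.16, 5.76, 10.1, 2.87 and 11.3 CPM in rested WT mice. Its medians were 3.02 CPM in rested mD3AKO, 6.72 CPM in exercised WT and 3.48 CPM in exercised mD3AKO mice. *Cfd*, which starts the alternative complement pathway, was at 92.5, 97.5, 166.8, 56.1 and 132.8 CPM in rested WT mice. It spanned 23.0 to 316.2 CPM in rested mD3AKO, 31.4 to 326.3 CPM in exercised WT and 44.5 to 131.0 CPM in exercised mD3AKO mice. For *Lep* and *Cfd*, as for *Adipoq*, exercised mD3AKO mice had the lowest maximum.

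The droplet genes followed the same mice. *Plin1* was at 10.4, 10.4, 27.1, 6.30 and 30.6 CPM in rested WT mice and averaged 17.0 ± 11.0 CPM (SD, n = 5). It ranged from 2.02 to 54.6 CPM in rested mD3AKO, from 3.10 to 58.5 CPM in exercised WT and from 4.39 to 18.4 CPM in exercised mD3AKO mice. *Cidec* was at 8.12, 8.63, 14.9, 5.28 and 17.7 CPM in rested WT mice. Its mean was 10.9 ± 5.16 CPM (SD, n = 5) in them, 9.17 ± 8.89 (n = 7) in rested mD3AKO (6.01 ± 3.36, n = 6, without mouse 21), 24.2 ± 17.3 (n = 7) in exercised WT and 11.4 ± 4.51 CPM (n = 6) in exercised mD3AKO mice. Exercised WT mice thus held the highest mean of *Cidec* and the widest SD.

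*Pparg*, the adipogenic receptor, was at 5.73, 5.16, 7.52, 4.42 and 9.58 CPM in rested WT mice, and its highest values, 13.2 and 12.8 CPM, were those of mice 9 and 21. Group medians were 5.73 CPM in rested WT, 4.86 in rested mD3AKO, 7.66 in exercised WT and 6.46 CPM in exercised mD3AKO mice. All 13 exercised mice lay above 5.16 CPM, the median of the 12 rested mice. *Fabp4* was at 220.0, 228.4, 274.6, 237.8 and 280.4 CPM in rested WT mice, and its group means lay between 223.6 ± 21.6 CPM (SD, n = 6) in exercised mD3AKO and 283.2 ± 59.2 CPM (n = 7) in exercised WT mice. *Lipe* was at 45.4, 30.0, 42.4, 32.9 and 54.1 CPM in rested WT mice, and its group means lay between 36.9 ± 4.78 CPM (n = 6) and 51.1 ± 13.1 CPM (n = 7), again in exercised mD3AKO and exercised WT mice.

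*Pnpla2*, the lipase of the first step of triglyceride breakdown, went its own way. It was at 289.2, 188.3, 228.4, 184.2 and 161.0 CPM in rested WT mice and at 151.8 to 329.8 CPM in rested mD3AKO mice. Mouse 2, with the least *Adipoq*, *Lep*, *Fabp4*, *Plin1*, *Retn* and *Pparg* of all 25, had the most *Pnpla2*, 329.8 CPM. Mouse 21, with the most *Adipoq*, had 154.7 CPM of *Pnpla2*, 1 of the 2 lowest values.

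**Figure D2:**
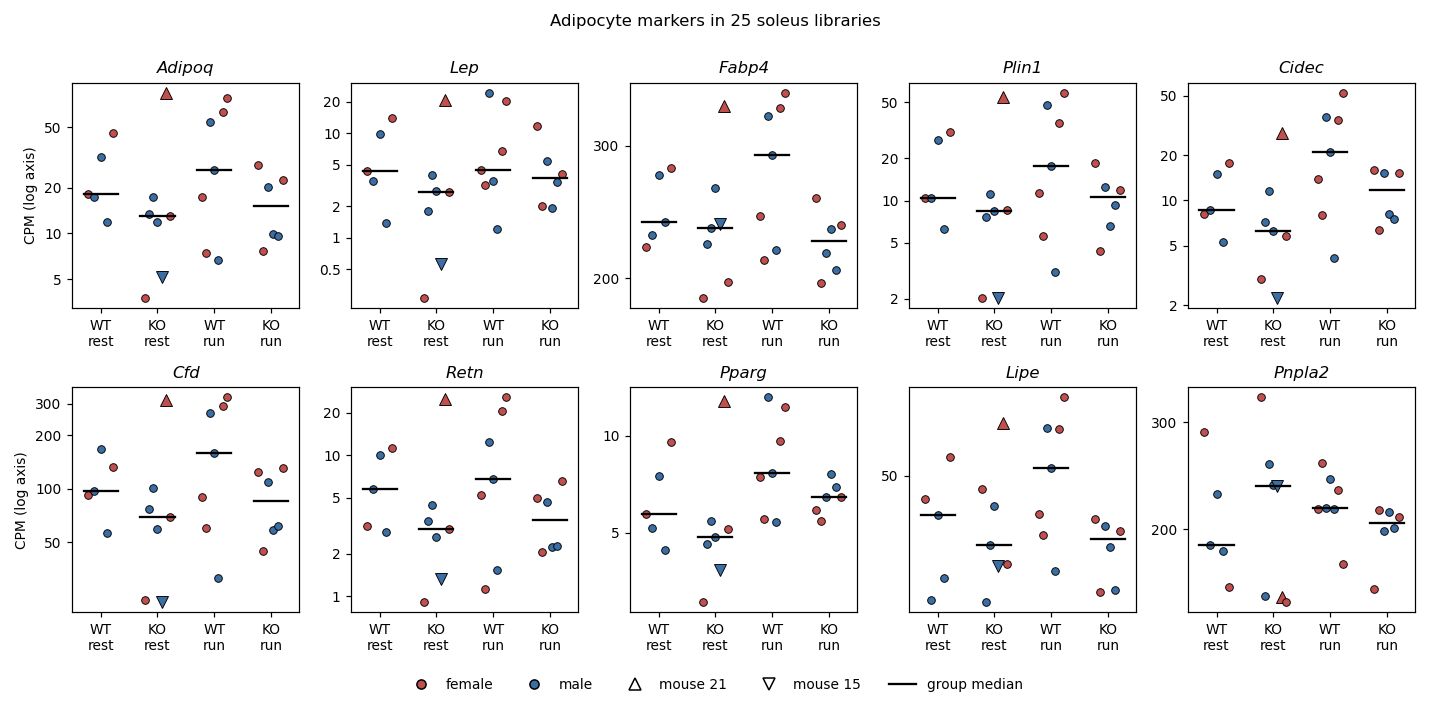
CPM of each adipocyte gene (log axis) in the 25 libraries, by genotype and exercise. Points are mice (red for females, blue for males), triangles mark mouse 21 (up) and mouse 15 (down), and lines are group medians. In all panels except *Pnpla2* mouse 21 lies above every other rested mouse, at 83.9 CPM for *Adipoq* against 45.8 CPM for the next.

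Across mice, the 6 wide genes kept a similar order. Over the 15 pairs of *Adipoq*, *Lep*, *Plin1*, *Cidec*, *Cfd* and *Retn*, Spearman's rho of log2 CPM over 25 libraries was 0.87 to 0.98, with a median of 0.95, and Pearson's r was 0.86 to 0.98. The medians of rho were 0.96 in the 12 females, 0.95 in the 13 males and 0.96 for residuals from the group means. Without the 2 libraries farthest from the median of the first gene of a pair, r was 0.84 to 0.97. All values come from the same libraries, so depth and composition are shared between the genes of a pair, and no p is given.

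*Pparg* followed the 6 with rho of 0.75 to 0.89, *Fabp4* with 0.67 to 0.79 and *Lipe* with 0.61 to 0.69. For *Fabp4* the median was 0.96 in females and 0.38 in males, and this difference was not tested. *Pnpla2* had rho of -0.35 to 0.18 with the other 9 genes. Its median rho with them, -0.23, was -0.45 in females and 0.25 in males, and was -0.01 without TMM scaling, so that no direction can be given for it.

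Linear fits in CPM gave the level of each gene at 0 CPM of *Adipoq*, just below the measured range. The line of *Fabp4* met 0 CPM of *Adipoq* at 201.5 CPM, or 85.7% of the median of *Fabp4*, with a slope of 1.94 CPM per CPM of *Adipoq*. For *Lipe* the line met it at 32.2 CPM (79.3% of its median), and for *Pparg* at 4.17 CPM (70.6%). For *Cidec* and *Cfd* these shares were 24.8% and 23.6%, and the line met it below 0 for *Plin1*, *Lep* and *Retn*, at -8.05%, -7.32% and -21.7% of their medians. *Pnpla2* had a slope of -0.70 CPM per CPM of *Adipoq*, with an r of -0.36. Without mice 21 and 25, the libraries highest in *Adipoq*, the shares were 83.6% for *Fabp4*, 77.7% for *Lipe* and 67.8% for *Pparg*. That of *Cidec* was then 15.2%, that of *Cfd* 17.5% and that of *Retn* -12.5%, and the r of *Pnpla2* was -0.18. In bulk muscle, fewer adipocytes and less RNA per adipocyte cannot be told apart.

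**Figure D3:**
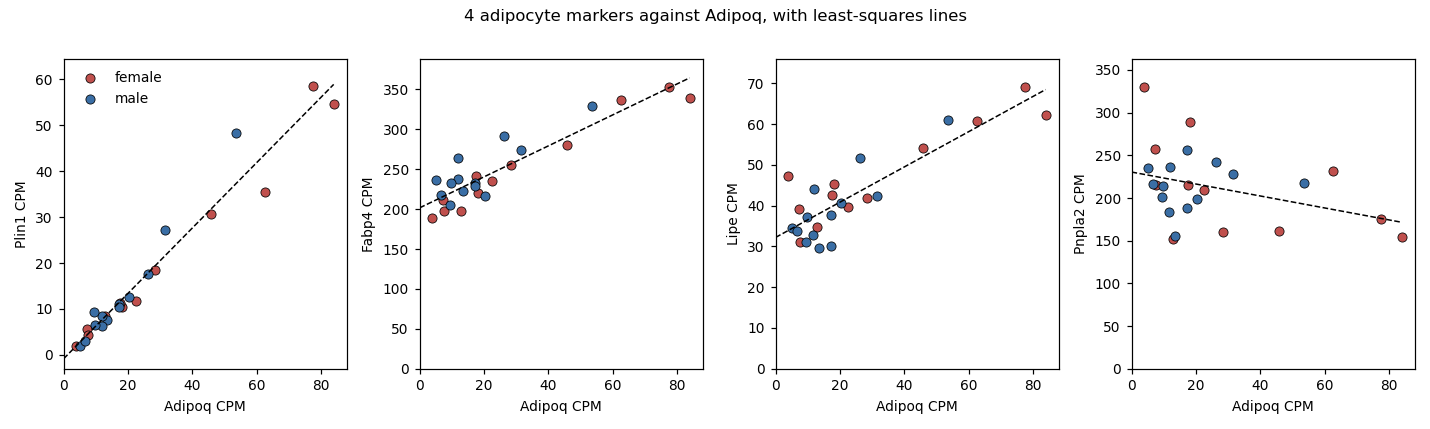
CPM of *Plin1*, *Fabp4*, *Lipe* and *Pnpla2* (vertical axes) against CPM of *Adipoq* (horizontal axes) in 25 libraries, females in red and males in blue, with least-squares lines. The *Plin1* line runs close to the origin, the *Fabp4* line starts at 201.5 CPM and the *Lipe* line at 32.2 CPM, and *Pnpla2* shows no rise.

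The mice at the extremes came from several groups. The 6 libraries with the highest mean of *Adipoq*, *Plin1* and *Cidec* were mice 25, 21, 9, 22, 20 and 13, of which 5 were WT, 4 female and 3 exercised. Mouse 25, an exercised WT female, held the highest value of 6 genes, and mouse 9, an exercised WT male, that of *Lep* and *Pparg*. Mice 2, 15, 18, 6, 5 and 14 were lowest in the same mean, and 3 of them were WT, 3 female and 3 exercised. Mouse numbers in the labels run through the sexes, with females at 1 to 6 and 20 to 25 and males at 7 to 19. Among females, *Adipoq* had a median of 12.5 CPM (3.75 to 28.3) in mice 1 to 6 and of 54.2 CPM (13.0 to 83.9) in mice 20 to 25. The labels do not say what the numbers stand for, and this difference was not tested.

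Markers of Schwann cells, which wrap nerve, were high in several of the same libraries. The summed CPM of 8 Schwann genes, none of them at 0, ranged from 74.4 to 283.1 in rested WT, from 81.7 to 741.5 in rested mD3AKO, from 79.9 to 480.5 in exercised WT and from 83.0 to 333.0 in exercised mD3AKO mice. The highest sum was that of mouse 21, followed by mice 22, 25, 10 and 20. Mouse 9, high in adipocyte genes, had a Schwann sum of 98.1 CPM, and mice 10 and 17, with sums of 333.0 and 272.4 CPM, had 20.3 and 9.86 CPM of *Adipoq*. The sum had a rho of 0.35 with the mean of *Adipoq*, *Plin1* and *Cidec* over 25 libraries, 0.66 in females and 0.07 in males. Of the 8 genes, 1 had a rho above 0.5 to it, *Pmp22*, named after its value was seen. The part of nerve or of dissection in the adipocyte results was not tested. The same mean had a rho of 0.09 with the library total and of -0.21 with the ribosomal share.

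**Figure D4:**
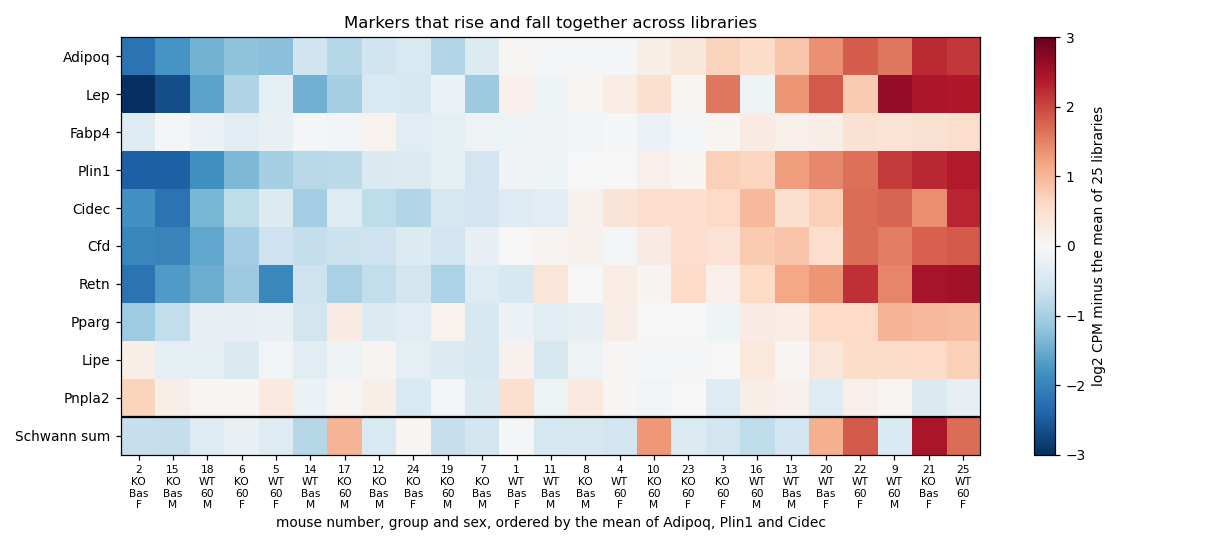
Log2 CPM of the 10 adipocyte genes and of the sum of 8 Schwann cell genes, each minus its mean over 25 libraries (colour scale), with libraries ordered from the lowest to the highest mean of *Adipoq*, *Plin1* and *Cidec*. *Adipoq*, *Lep*, *Plin1*, *Cidec*, *Cfd* and *Retn* change from blue to red together from mouse 2 to mouse 25, *Fabp4*, *Lipe* and *Pnpla2* stay pale, and the Schwann sum is red in mice 17, 10, 20, 22, 21 and 25.

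Exercise was the first comparison. None of the 10 adipocyte genes changed 60 minutes after the run by edgeR's quasi-likelihood test at an adjusted p under 0.05, a threshold that 10.4% of all 16340 tested genes passed. All 10 had passed the filter on low counts. Without adjustment, 0 of them had a p under 0.05, against 3488 of all 16340 tested genes, and DESeq2 also called 0. Adjusted p-values ran from 0.27 to 0.997. *Cidec* had the smallest, with a log2 fold change of 0.72 (SE 0.37, adjusted p = 0.27), and it lay above the rested median in 10 of 13 exercised mice. *Pparg* stood at 0.30 (SE 0.19, adjusted p = 0.40). *Cfd* stood at 0.28, *Lep* at 0.23, *Plin1* at 0.11, *Lipe* at 0.08, *Adipoq* at 0.07, *Fabp4* at 0.04, *Retn* at 0.01 and *Pnpla2* at -0.02. The median of the 10 was 0.09 beside -0.0009 over all tested genes.

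These values depended on mouse 21, the highest rested library in all of the genes but *Pnpla2*, which was singled out by its values. Without it 2 of the 10 had an unadjusted p under 0.05, and *Pparg* had a log2 fold change of 0.48 (SE 0.15) and an adjusted p of 0.0415, which is past the threshold, *Cidec* 1.02 with an adjusted p of 0.0518 and *Adipoq* 0.56. *Lep* then stood at 0.83, *Cfd* at 0.63, *Plin1* at 0.62 and *Retn* at 0.59, none of them past the threshold. The values of *Lipe*, *Fabp4* and *Pnpla2* were 0.14, 0.10 and -0.06. With mouse 15 left out as well, *Pparg* stood at 0.46 with an adjusted p of 0.063 and did not pass. In females alone the *Pparg* value was -0.03 and in males alone 0.58, and the difference between the sexes was not tested.

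Genotype gave lower fitted values for all 10 genes in mD3AKO muscle, and none passed. Of all tested genes, 0.269% were called by genotype, 0.0428% being lower in mD3AKO mice. The log2 fold changes of mD3AKO against WT were -0.81 for *Retn*, -0.80 for *Plin1*, -0.69 for *Lep*, -0.68 for *Adipoq*, -0.66 for *Cidec* and -0.59 for *Cfd*, with SEs of 0.37 to 0.53. *Pparg* stood at -0.31, *Lipe* at -0.23, *Fabp4* at -0.19 and *Pnpla2* at -0.05. DESeq2 also called 0 of them. *Fabp4* alone had an unadjusted p under 0.05, of 0.0478, with an adjusted p of 0.80, and 2 of 13 mD3AKO mice lay above the WT median. The median of the 10 genes was -0.62 beside 0.007 over all genes, and since 6 of them varied together between mice, they are not 10 separate readings. Without mouse 21 the values of *Adipoq*, *Plin1* and *Retn* were -1.17, -1.31 and -1.38, with adjusted p of 0.33, 0.30 and 0.28. *Lep* stood at -1.30, *Cidec* at -0.96, *Cfd* at -0.94 and *Pparg* at -0.48, with adjusted p of 0.30 to 0.45. Of the 10 genes 9, all except *Pnpla2*, then had an unadjusted p under 0.05, whereas leaving out any other single mouse gave 0 to 3 such genes. Mouse 21 was the highest mD3AKO library in these 9 genes and was singled out by its values. Leaving it out widens the difference, so the p-values without it describe its weight and are no separate test. Over all tested genes, 1018 of 16340 had an unadjusted p under 0.05 by genotype. With 1 mouse left out 869 to 1098 did, and over all alternatives 534 to 1948. In males alone 4 of the 10 and in females alone 0 had an unadjusted p under 0.05, with *Lep* at -1.23 and -0.38, and the difference between the sexes was not tested. With mice 15 and 21 both out, the values of *Adipoq*, *Plin1* and *Retn* were -1.10, -1.23 and -1.33. Again 9 of the 10 had an unadjusted p under 0.05, and 0 passed with adjustment. The SE of *Adipoq* was 0.44 beside a median of 0.09 over all tested genes.

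The interaction, the response to exercise in mD3AKO minus that in WT, was called for 0 of the 16340 genes, of which 403 had an unadjusted p under 0.05, and DESeq2 also called 0. Values of the adipocyte genes ran from -1.29 (*Retn*, SE 0.98) to -0.20 (*Pnpla2*, SE 0.23). Without mouse 21, that of *Retn* was -0.16, that of *Adipoq* 0.06 instead of -0.91 and that of *Lep* 0.70 instead of -0.50, and the 10 values ran from -0.37 (*Lipe*) to 0.70. With the 3 runs of mouse numbers as a term, chosen after seeing the data, the value of *Retn* was -0.13, that of *Adipoq* 0.04 and that of *Lep* 0.24, and the 10 ran from -0.40 (*Lipe*) to 0.24.

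Sex gave lower fitted values in males for 9 of the 10 genes, and 0 passed, against 10.0% of all tested genes. *Retn* stood at -0.91 (SE 0.47), *Adipoq* at -0.82 (SE 0.42), *Lep* at -0.77 (SE 0.52) and *Lipe* at -0.25 (SE 0.11, unadjusted p = 0.0355, adjusted p = 0.16). *Lipe* alone had an unadjusted p under 0.05, against 4096 of all 16340 tested genes, and DESeq2 also called 0. With 1 mouse left out, 3670 to 4312 of all tested genes had such a p by sex. Medians of *Adipoq* were 20.4 CPM in 12 females and 13.4 CPM in 13 males, but females 1 to 6, at 12.5 CPM, lay below the males, and females 20 to 25 stood at 54.2 CPM. The Schwann sum moved with this, with medians of 97.6 CPM in females 1 to 6, 93.2 CPM in males and 357.7 CPM in females 20 to 25, and its part in the values by sex was not tested. Without mouse 21 the values were -0.38 for *Retn*, -0.35 for *Adipoq*, -0.23 for *Lep* and -0.19 for *Lipe*, that of *Plin1* was -0.17, from -0.67 with it, and 0 of the 10 had an unadjusted p under 0.05. Without mouse 9, the male highest in *Lep*, the value of *Lep* was -1.32 and that of *Adipoq* -1.03, and 4 of the 10 had an unadjusted p under 0.05 and 0 an adjusted one. No groups of exercise, genotype or sex separated without overlap for any of the 10 genes. How many of all tested genes separated was not counted, so this is no trait of the 10.

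**Figure D5:**
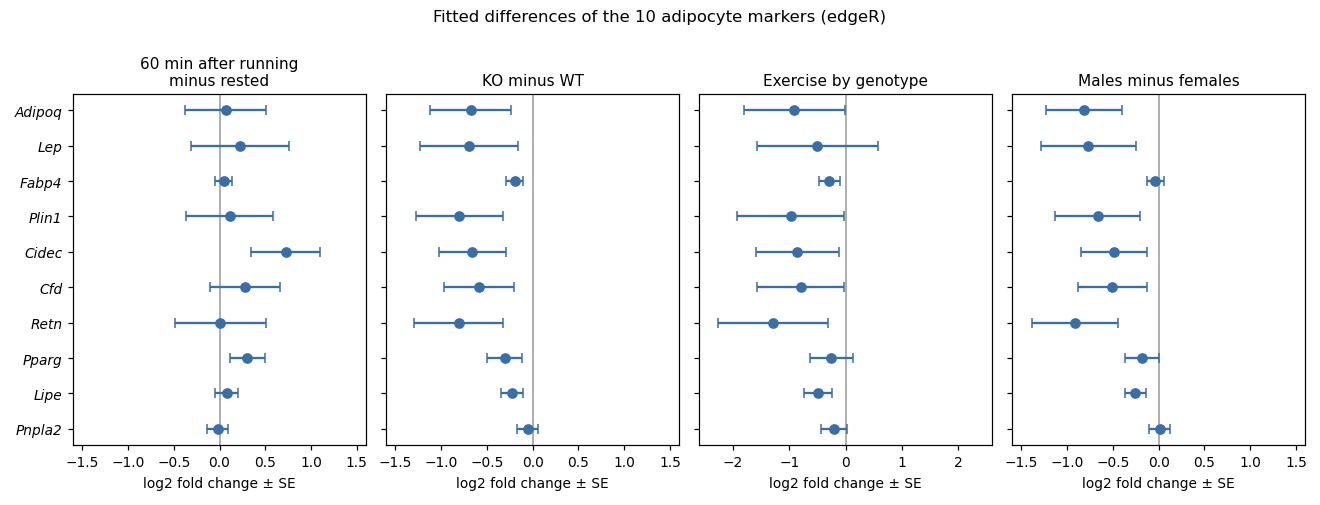
Log2 fold changes (points) with standard errors (bars) of the 10 adipocyte genes in the 4 comparisons of edgeR: exercise, genotype, their interaction and sex. The bars of *Adipoq*, *Lep*, *Plin1* and *Retn*, with SEs of 0.42 to 0.54 for exercise, genotype and sex, are several times longer than those of *Fabp4*, and none of the 10 genes passed the threshold in any panel.

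Other genes of the fat cell were read from lists, chosen like the 10 genes with earlier results known. Fatty acid and triglyceride synthesis was represented by 18 genes, of which 17 were tested, and 8 had a rho above 0.5 to the mean of *Adipoq*, *Plin1* and *Cidec*. *Scd1*, which desaturates fatty acids, had a rho of 0.91 and ranged from 29.7 to 1395 CPM. *Fasn*, the fatty acid synthase, had a rho of 0.83 and ranged from 25.5 to 580.5 CPM. *Dgat1* had a rho of 0.86, *Pck1* of 0.86, *Thrsp* of 0.79, *Acly* and *Elovl6* of 0.77 and *Acaca* of 0.75, whereas *Gpam* and *Mlxipl* had -0.52. The median over the list was 0.47, and over the 12797 genes compared it was -0.02. Of those 12797 genes 63 had a rho above 0.8, and the number above 0.5 was not counted, here or for the lists below. The summed list ranged from 1312 to 3629 CPM and had a rho of 0.75 to the mean. After exercise 2 of the 17 rose and 0 fell: *Lpin1*, a phosphatidate phosphatase, by 0.74 on the log2 scale (SE 0.09) and *Pck1*, of glyceroneogenesis, by 1.41 (SE 0.44, adjusted p = 0.0387). Over all tested genes 5.70% rose and 4.69% fell. *Pck1* lost its call in 18 of 36 alternatives.

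Other droplet proteins and partners of lipolysis numbered 18, with 17 tested. After exercise *Plin4*, a droplet coat protein, rose by 0.37 (SE 0.09), a call lost without TMM scaling and in females alone. In the same list 2 fell, *G0s2*, the inhibitor of adipose triglyceride lipase, by 1.5 (SE 0.15) and *Aqp7*, a glycerol channel, by 0.69 (SE 0.09), against 4.69% lower and 5.70% higher over all tested genes. The target of *G0s2*, *Pnpla2*, gave -0.02 (SE 0.11), and *G0s2* had a rho of -0.34 to the mean of *Adipoq*, *Plin1* and *Cidec*. By genotype 1 gene of the list was higher in mD3AKO mice, *Plin3*, at 73.6 ± 13.7 CPM (SD, n = 5) in rested WT and 115.7 ± 27.3 CPM (n = 7) in rested mD3AKO mice, with a log2 fold change of 0.61 (SE 0.10, edgeR adjusted p = 0.0023), a call lost in females alone and in males alone. *Plin3* had a rho of -0.36 to the same mean. Over all tested genes 0.226% were higher by genotype. A rho above 0.5 was found for 4 of the 17, *Pde3b* (0.93), *Pnpla3* (0.82), *Bscl2* (0.81) and *Adrb3* (0.80), which were named after their values were seen.

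Of 13 transcription factors of adipocyte differentiation other than *Pparg*, all tested, 5 rose after exercise and 2 fell, against 5.70% and 4.69% of all tested genes. *Cebpd* rose by 1.86 (SE 0.16). In WT mice it averaged 6.66 ± 2.91 CPM (SD, n = 5) when rested and 23.3 ± 7.48 CPM (n = 7) after the run. *Ppara*, of fatty acid oxidation, rose by 1.09 (SE 0.09), *Cebpb* by 0.64 (SE 0.11) and the corepressor *Nrip1* by 0.63 (SE 0.08). These 4 genes had a rho of 0.03 to 0.22 to the adipocyte mean, and the list had a median of 0.16. *Cebpa*, which keeps adipocytes differentiated, was the 1 factor above 0.5, at 0.97. It ranged from 3.64 to 25.2 CPM and did not pass in any comparison.

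Of 11 brown adipocyte markers, 8 were tested and 1 fell after exercise, *Dio2*, a deiodinase, by 0.44 (SE 0.14, edgeR adjusted p = 0.0378), a call lost in 13 of 36 alternatives. Of all tested genes 4.69% fell and 5.70% rose. *Ucp1* and *Lhx8* had at most 2 counts in any library. Of 16 other adipokines, complement partners of *Cfd* and receptors, 15 were tested, *Itln1* being at 0 in every library, and 2 rose after exercise. They were *Gpihbp1*, which carries lipoprotein lipase across capillary endothelium, by 0.68 (SE 0.07) and *Adipor2*, an adiponectin receptor, by 0.15 (SE 0.03), a call lost without TMM scaling and in either sex alone. In the complement pathway of *Cfd*, *C3* had a rho of 0.64 and *Cfb* of 0.65 to the adipocyte mean, 2 of the 4 genes of the list above 0.5. The median over the list was 0.12, and its summed CPM had a rho of -0.48.

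By sex, against 5.92% higher and 4.11% lower in males over all tested genes, 3 genes of the synthesis list were higher in males (*Dgat2*, *Lpin1* and *Acss2*, by 0.37, 0.25 and 0.20) and 0 lower. The call of *Acss2* was lost in 13 of 33 alternatives. Of the droplet list 4 were higher and 2 lower, among them *Cidea* at 0.50, *Plin3* at 0.32 and *Abhd5* at 0.20 and, lower in males, *Plin4* at -0.27. *Nampt* was higher at 0.31 and the leptin receptor *Lepr* lower at -0.35, and of the factors *Klf15* was lower at -0.28. Without TMM scaling the calls by sex of *Dgat2*, *Lpin1*, *Abhd5*, *Plin3*, *Cidea* and *Nampt* were lost. *Lpin1* also lost its call without mouse 20 and *Cidea* without mouse 16. That of *Plin4* was lost in 4 of 33 alternatives and that of *Lepr* in 1. *Cidea* was also the 1 gene of the brown list called by sex. Unlike *Cidec*, it had a rho of -0.43 to the adipocyte mean.

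Markers of other cells of muscle were read in the same way. Of 12 fibroadipogenic genes, of the mesenchymal cells that can become adipocytes, 11 were tested, with *Ly6a* higher after exercise by 0.28 (SE 0.09), a call lost in 18 of 36 alternatives, and *Pdgfrb* lower at -0.46 (SE 0.08), and their summed CPM had a rho of 0.44 to the adipocyte mean. Of 10 endothelial genes 1 rose after exercise, *Esam* by 0.31 (SE 0.06; lost without TMM scaling and in males alone), and 6 fell, among them *Kdr* by 0.58 (SE 0.07), *Egfl7* by 0.44 (SE 0.08) and *Tek* by 0.35 (SE 0.06), against 5.70% higher and 4.69% lower over all tested genes, and the sum had a rho of 0.27. The calls of *Egfl7* and *Tek* were lost in females alone. By edgeR the 8 tested immune genes of 10 gave 0 calls in the 4 comparisons (0 with an unadjusted p under 0.05) and a rho of 0.38, and their sum ranged from 63.0 to 288.8 CPM. The 8 Schwann genes and the 5 blood genes gave 0 calls as well, with an unadjusted p under 0.05 by sex for 7 (median of the 8 genes -0.88) and 3 of them and in the other comparisons for 0, and the blood sum had a rho of 0.22. By sex 4096 of all 16340 tested genes had an unadjusted p under 0.05. The 6 tendon genes gave 0 calls by exercise or genotype (0 unadjusted) and a rho of 0.23, and *Mkx* was lower in males at -0.42. The 13 fiber genes likewise gave 0 calls by exercise or genotype (0 unadjusted) and a rho of -0.56, and 5 were higher and 4 lower in males, among them *Myh7* at -0.49, against 5.92% higher and 4.11% lower over all tested genes. Without adjustment, 5 of the 6 tendon genes and 10 of the 13 fiber genes had a p under 0.05 by sex. Of 5 satellite cell genes *Myf5* fell by 0.46 and *Pax7* by 0.45 after exercise, and *Pax7* was higher in mD3AKO mice at 0.48 (SE 0.11, edgeR adjusted p = 0.0384), a call lost in 21 of 36 alternatives. The call of *Myf5* after exercise was lost in females alone. *Chodl* was lower in males at -0.41 and *Pax7* at -0.28, the latter a call lost in 20 of 33 alternatives, and the satellite sum had a rho of -0.02. What part the other cell types have in the adipocyte values was not tested.

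Among the 12797 genes whose mean log2 CPM was 0 or more, those most like the mean of *Adipoq*, *Plin1* and *Cidec* over 25 libraries were ranked by Spearman's rho, the 10 genes left out. *Cebpa* stood first at 0.970, followed by *Acvr1c* (0.965), which encodes the receptor ALK7, *Mrap* (0.962), an accessory protein of the ACTH receptor, *Ankef1* (0.954), *Serpina3c* (0.948), *Prkar2b* (0.948), a regulatory subunit of protein kinase A, *Slc7a10* (0.948) and *Acp5* (0.945). All 8 were low, with medians of 0.949 CPM (*Slc7a10*) to 8.68 CPM (*Cebpa*). A rho above 0.9 was found for 23 genes, above 0.8 for 63 and below -0.8 for 0, and the median gene had -0.02.

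The 4 genes of narrower range were compared in the same way. *Fabp4* was most like *Cd1d1* (0.850), *Cdkn2c* (0.815), *Heph* (0.80), *Ces1f* (0.787) and *Trarg1* (0.787). *Pparg* was most like *Pck1* (0.878), *Ankef1* (0.876), *Slc7a10* (0.865), *Slc1a3* (0.860) and *Serpina3c* (0.850), of which 3 also stood among the 8 above. For *Lipe* they were *Ces1d* (0.832), *Adcy5* (0.798), *Sncg* (0.778), *Inhbb* (0.768) and *Acss3* (0.767). For *Pnpla2* they were *Bola1* (0.902), *Apba3* (0.901), *Akt1s1* (0.899), *Grcc10* (0.899) and *Mrpl38* (0.882), none of which stood in another of these rankings. *Pck1* was at 9.36 ± 5.47 CPM (SD, n = 5) in rested WT, 8.84 ± 10.6 (n = 7) in rested mD3AKO (4.92 ± 2.43, n = 6, without mouse 21), 36.6 ± 29.1 (n = 7) in exercised WT and 16.3 ± 8.90 CPM (n = 6) in exercised mD3AKO mice.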

How the data were processed

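Single *soleus* muscles were homogenised, and ribosome-depleted total RNA was sequenced as 75-base stranded paired ends. Per the labels and the study's methods, the authors checked reads with FastQC 0.11.5, aligned them to mm10 with STAR 2.5.3a and made the deposited counts per GENCODE M15 gene with featureCounts 1.5.3. How counting used strand is not given in the sources used here.

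Counts were tested with edgeR 4.0.16 (limma 3.58.1, R 4.3.3): TMM scaling (factors 0.631 to 1.16), filterByExpr (minimum count 10, total 15), the quasi-likelihood F-test on 4 group means of 25 libraries and Benjamini-Hochberg adjustment over 16340 genes, called under 0.05. Sex was tested with the groups as terms. CPM and RPKM used TMM library sizes, and log2 CPM a prior count of 2. Tests were checked on simulated counts. DESeq2 1.42.0, other scaling and filters, sex, single sexes and leaving out each mouse were alternatives.

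The genes and lists were chosen with earlier results of these data known. Besides the 10 genes and *Dnmt3a*, named genes were, per list, up to 4 called genes with the lowest adjusted p, and the 8 or 5 most alike by rho. A result for 1 listed gene is not reported here.

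Of 67 pairs of libraries within groups, 0 were identical.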

Additional observations from a re-analysis of the deposited data

Results flagged for a closer look

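In 9 of 40 sets of values (10 genes in 4 groups), the highest or lowest library was separated from its nearest neighbour by a share of the range above Dixon's critical value. For normally distributed values chance gives this in about 1 of 20 sets. The rule was applied to CPM, which are skewed to high values, and not to log2 CPM. The 9 flags therefore cannot be set against that rate and only point to libraries. Mouse 21 was the highest of the rested mD3AKO mice for 7 of them. The share was 0.830 for *Adipoq* (83.9 against 17.3 CPM), 0.818 for *Lep* (20.9 against 4.03 CPM), 0.826 for *Plin1* (54.6 against 11.2 CPM) and 0.637 for *Cidec* (28.1 against 11.6 CPM). For *Cfd* it was 0.734 (316.2 against 101.0 CPM), for *Retn* 0.854 (25.0 against 4.43 CPM) and for *Pparg* 0.755 (12.8 against 5.44 CPM). These 7 genes vary together, so the 7 values describe 1 library.

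Among exercised mD3AKO mice, mouse 3 was highest in *Lep*, at 11.7 against 5.42 CPM (share 0.643), and lowest in *Pnpla2*, at 159.7 against 198.8 CPM (share 0.707).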

How the results depend on the processing

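None of the 10 genes passed in the 4 comparisons under other scaling, filters, DESeq2 or a robust fit, nor by exercise, genotype or interaction with sex as a term or in single sexes. With 1 mouse left out at a time, *Pparg* after exercise without mouse 21 gave the 1 call. Without TMM scaling the genes called were 927 by exercise and 29 by genotype, *Retn* gave -0.046 for exercise, *Pnpla2* -0.094 for sex, and the median rho of *Pnpla2* with the other 9 genes was -0.0062. With sex as a term 72 genes were called by genotype and *Retn* gave -0.077 for exercise, and with 8 groups of sex, genotype and exercise *Pnpla2* gave -0.0017 for sex. In females alone 512 genes were called by exercise and 6 by genotype, and exercise gave -0.21 for *Adipoq*, -0.24 for *Lep*, -0.23 for *Plin1*, -0.11 for *Retn*, -0.027 for *Pparg* and -0.14 for *Lipe*. In males alone the counts were 966 and 23, and *Pnpla2* gave 0.019. DESeq2 called 81 genes by genotype. With the 3 runs of mouse numbers as a term, chosen after seeing the data, 97 genes were called by genotype, the interaction was 0.044 for *Adipoq*, 0.24 for *Lep*, -0.0015 for *Plin1*, -0.036 for *Cfd* and -0.13 for *Retn*, and exercise gave 0.39 for *Plin1* and 0.20 for *Retn*. With mice 15 and 21 both left out, likewise chosen after seeing the data, the interaction was 0.56 for *Lep* and 0.060 for *Pparg*, and sex gave 0.042 for *Fabp4*, 0.035 for *Pparg* and -0.033 for *Pnpla2*. The causes were not tested.

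Leaving out 1 mouse at a time gave 1539 to 1804 genes called by exercise, 35 to 48 by genotype, 0 by the interaction and 1248 to 1875 by sex. Signs turned in these ranges: for exercise, *Adipoq* -0.079 to 0.56, *Lep* -0.018 to 0.83, *Plin1* -0.057 to 0.62, *Retn* -0.18 to 0.59 and *Pnpla2* -0.062 to 0.050. For genotype *Pnpla2* ranged from -0.12 to 0.017. For the interaction *Adipoq* ranged from -1.25 to 0.058, *Lep* from -1.003 to 0.70, *Plin1* from -1.30 to 0.032 and *Pparg* from -0.44 to 0.084. For sex *Fabp4* ranged from -0.069 to 0.036, *Pparg* from -0.29 to 0.013 and *Pnpla2* from -0.040 to 0.11. Of the 40 calls of list genes tried (up to 4 per list and comparison, those of lowest adjusted p), 23 were lost in at least 1 alternative and 0 turned direction. Mean CPM stayed within 1 SD for 40 of 40 values without TMM and for 33 without ribosomal and mitochondrial RNA in the library sizes. No paired analysis was possible because each mouse number belongs to 1 mouse, so the groups share no number. Counting error at the median count was at most 9.17% (*Lep*), so depth limits the lowest *Lep* values most.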
